A study of Danio rerio with 6 samples.

Results

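The genes described here are the secreted Wnt proteins of the zebrafish, their Frizzled receptors and Lrp co-receptors, and the secreted proteins that strengthen or block them. They were taken by gene name from a table of 32057 genes, and the name rule found 55: 26 Wnt ligands, 13 Frizzled receptors, 2 Lrp co-receptors (*lrp5* and *lrp6*), 4 R-spondins, 5 secreted Frizzled-related proteins (sFRPs) and 5 Dickkopf (Dkk) proteins. The symbol *wnt8a* stands on 2 of the 26 ligand rows, with a different identifier each. The study asked how *nlrc3*, which encodes an NLR family protein, acts when blood stem and progenitor cells first arise, and RNA was sequenced from sorted cells of zebrafish embryos. The embryos of 3 samples had received a morpholino against *nlrc3* (*nlrc3* MO), and those of the other 3 the standard morpholino (control MO). All 6 samples were GFP+ cells of the transgenic line Tg(*fli1a*:eGFP), taken at 28 hours post fertilization (hpf) according to the labels, and none was cultured. Figure legends of the study place the same sequencing at a slightly earlier hour, and the labels were followed here.

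In this line the promoter of *fli1a*, a transcription factor gene of endothelial cells, drives the fluorescent protein, and the same promoter is also active in neural crest-derived mesenchyme of the pharyngeal arches. Both morpholinos are described as splice-modifying and were injected into the embryo before its first division, the *nlrc3* MO at a higher concentration than the control MO, so that dose and target cannot be told apart. The study calls the samples biological replicates, without saying how embryos were pooled for each, and the p-values measure the spread between these samples.

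Wnt proteins are lipid-modified signals that leave the cell with the help of the carrier Wls and bind a Frizzled receptor on a neighbouring cell. With Lrp5 or Lrp6 in the complex, the signal stabilizes beta-catenin, which then switches on genes together with Tcf and Lef factors; without them, Frizzled proteins and receptors such as Ror and Ryk can steer cell shape and movement. R-spondins increase the number of receptors at the cell surface, sFRPs bind Wnt proteins outside the cell, and Dkk1 blocks the Lrp co-receptors. In zebrafish embryos *wnt16* acts in the specification of hematopoietic stem cells and *wnt9a*, through the receptor encoded by *fzd9b*, in their amplification.

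Expression was given as FPKM (fragments per kilobase of transcript, scaled to the mapped fragments of the sample), a level per length. These values hold no read totals, so the sequencing depth is unknown and errors are those between the 3 samples of a group. The values of all genes summed to 678620 to 687387 FPKM in the *nlrc3* MO samples and 524846 to 525567 FPKM in the control MO samples, and 19060 to 19609 genes in the *nlrc3* MO samples and 21041 to 21737 genes in the control MO samples were above 0. The knocked-down gene *nlrc3* itself was at 0.26, 0.15 and 0.17 FPKM in the 3 *nlrc3* MO samples, in the order of their replicate numbers, against 0.82, 0.70 and 1.09 FPKM in the control MO samples. Its groups did not overlap, and its log2 fold change was -1.72 (standard error 0.30, limma adjusted p = 0.00175). All 6 values were low, and the gene passed the filter given below through the control MO samples only. With 1 in place of 0.1 added before the logarithm the change was -0.64, within the fold limit set below. Of 10 endothelial markers 9 were above 0 in every sample, the exception being *plvapa*, at 0 to 0.45 FPKM in the *nlrc3* MO samples and 0.08 to 0.53 FPKM in the control MO samples. This does not test the labelled cell type, since markers of other cells were above 0 as well. The marker *kdrl*, a receptor of vascular endothelial growth factor, was at 47.7 to 50.3 FPKM in the *nlrc3* MO samples and 63.4 to 65.6 FPKM in the control MO samples. In the other direction, *tek* was at 39.06 to 41.05 FPKM in the *nlrc3* MO samples and 32.51 to 33.62 FPKM in the control MO samples.

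Most Wnt components that could be tested were lower after the *nlrc3* MO, in the ligands as well as in the receptors and inhibitors. A gene was tested if 3 or more of the 6 samples reached 0.5 FPKM. The test was limma on log2(FPKM + 0.1), a scale that understates the change of low genes, with Benjamini-Hochberg adjustment over all 15155 tested genes. A call needed an adjusted p under 0.05 as well as a fold above 2 or under 0.5. Of the 55 members 28 were tested, and 19 were called lower and 0 higher in *nlrc3* MO samples. Over all tested genes 20.4% were called lower and 4.89% higher, 25.3% in either direction. Without the fold limit, 25 of the 28 were lower and 1 higher at an adjusted p under 0.05, where 42.9% of all tested genes were lower and 20.2% higher, 63.1% in all. The *nlrc3* MO samples all lay below the control MO samples in 25 of the 28 members and all above them in 1, against 46.1% and 22.8% of all tested genes (68.9% in either direction). An exact permutation test of 3 against 3 samples cannot reach a two-sided p under 0.1. The median log2 fold change of the tested members was -1.67 (range -5.49 to 0.45) and that of all tested genes -0.22.

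**Figure D1:**
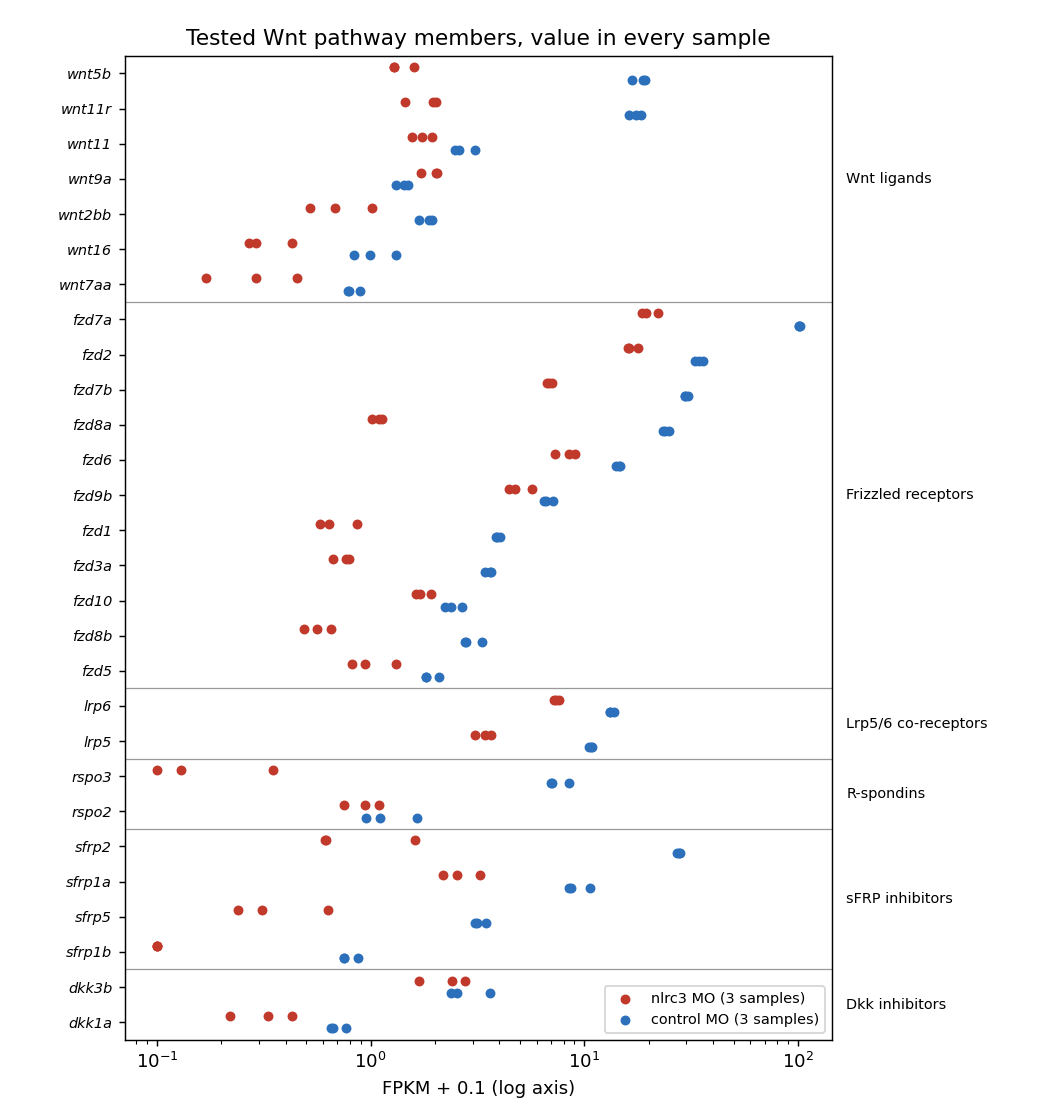
FPKM + 0.1 on a log axis for the 28 tested members, by class, with a point for each of the 3 *nlrc3* MO samples (red) and the 3 control MO samples (blue). The groups overlap in *rspo2* and *dkk3b*, *wnt9a* lies higher in the *nlrc3* MO samples, and the other 25 members lie lower in them.

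A gene present in 1 group only had to differ in order to pass the filter. Among the 28 tested members, 5 were under 0.5 FPKM in all 3 *nlrc3* MO samples and passed through the control MO samples, and 0 passed the other way. These 5 were *rspo3*, *sfrp1b*, *wnt16*, *wnt7aa* and *dkk1a*. The filter fixed their direction, so their calls, all lower, are no support for it. Of the 19 members at 0.5 FPKM or more in all 6 samples, 10 were called lower and 0 higher, against 14.4% lower and 4.29% higher among the 12503 such genes in all. With the filter set instead on the mean over all 6 samples, at 2 FPKM or more, a choice made after seeing the data, 12 of 17 members were called lower and 0 higher, where 16.8% of 11027 genes were lower and 4.34% higher.

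Markers of other cells moved in the same samples. For comparison, 20.4% of all tested genes were called lower and 4.89% higher. Of the 10 markers of neural crest and head mesenchyme, all were tested and 9 were called lower. Of these, *alx1*, *twist1b* and *crestin* passed the filter through the control MO samples only, so they could only come out lower. The median log2 fold change of the 10 markers was -5.69, and their summed levels were 9.18 to 11.03 FPKM in *nlrc3* MO samples and 584.41 to 610.18 FPKM in control MO samples. In that list *alx1* was listed at 0 in *nlrc3* MO sample 3, and the other 9 were above 0 in every sample. Of the 9 tested neural markers 4 were lower (*sox2*, *sox19a*, *ascl1a* and *tubb5*), with sums of 28.9 to 29.6 FPKM in *nlrc3* MO samples and 146 to 150 FPKM in control MO samples, most of it *tubb5* in the control MO samples. All 7 erythroid markers in the table were called higher, at 53730 to 55482 FPKM in *nlrc3* MO samples and 17921 to 18137 FPKM in control MO samples, and 7 of 9 tested myeloid markers were called higher, at 1200 to 1225 FPKM in *nlrc3* MO samples and 527 to 533 FPKM in control MO samples. These calls depended on scaling: with equal totals 1 of the 7 erythroid calls (*hbae3*) and 5 of the 7 myeloid calls were kept, while the 9 neural crest calls were kept with every scaling tried. Of the neural markers 8 were called lower with equal totals, where 30.5% of all tested genes were. With a pseudocount of 1 in place of 0.1 the neural count was 3 (*ascl1a* was lost), against 12.8% of all tested genes. Among the 9 tested endothelial markers 6 had log2 fold changes below 0, and *erg* overlapped. Higher without overlap were *tek* and *etv2*, at 0.27 and 0.18, but at -0.10 and -0.20 with equal totals. The 2 called lower were *fli1a* and *egfl7*, a share near that of all tested genes. With median-of-ratios scaling *fli1a* lost its call, at -0.96. Endothelial sums were 368 to 378 FPKM in *nlrc3* MO samples and 585 to 595 FPKM in control MO samples. Without *fli1a* they were 279 to 286 FPKM in *nlrc3* MO samples and 384 to 388 FPKM in control MO samples. Of these, *egfl7* held 46.05 to 51.17 FPKM in *nlrc3* MO samples and 125.65 to 128.78 FPKM in control MO samples. The part of these markers in the results on Wnt genes was not tested, and in sorted bulk samples fewer cells of a type and less RNA per cell cannot be told apart.

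The ligands most abundant in control MO samples, *wnt5b* and *wnt11r*, had the largest falls of their class. The gene *wnt5b* (ENSDARG00000102464), whose protein acts mainly on cell movement without beta-catenin, was at 1.19, 1.19 and 1.49 FPKM in the *nlrc3* MO samples, against 16.70, 18.73 and 19.22 FPKM in the control MO samples. The groups lay far apart, and the log2 fold change was -3.72 (standard error 0.12, limma adjusted p = 1.61e-07), or 13.2-fold lower on the log2(FPKM + 0.1) scale. Likewise *wnt11r* (ENSDARG00000014796) was at 1.35, 1.85 and 1.93 FPKM in *nlrc3* MO samples, against 16.08, 17.41 and 18.35 FPKM in control MO samples. The spread within either group was small beside this gap, and its log2 fold change was -3.28 (standard error 0.14, limma adjusted p = 8.14e-07). Symbols of this pair differ between sources: a separate list of zebrafish names calls the identifier of *wnt11r* WNT11 and that of *wnt11* (ENSDARG00000004256) wnt11f2.

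The related *wnt11*, known in zebrafish for the convergence and extension movements of gastrulation, moved less. It was at 1.47, 1.83 and 1.64 FPKM in *nlrc3* MO samples and 2.99, 2.49 and 2.39 FPKM in control MO samples. All *nlrc3* MO samples were lower, but the log2 fold change of -0.64 (standard error 0.15, limma adjusted p = 0.00756) was within the fold limit, and it was -1.02 and called where every sample was rescaled to the same total. In the *nlrc3* MO samples *wnt11* and *wnt11r* were at nearly the same level, with ratios of *wnt11r* to *wnt11* of 0.918, 1.01 and 1.18, against 5.38, 6.99 and 7.68 in control MO samples.

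Of the ligands tied to blood stem cells, *wnt16* was at 0.17, 0.19 and 0.33 FPKM in *nlrc3* MO samples and at 0.74, 0.89 and 1.22 FPKM in control MO samples. Every *nlrc3* MO sample was lower, with a log2 fold change of -1.68 (standard error 0.32, limma adjusted p = 0.00252), but all 6 values were low and with a pseudocount of 1 in place of 0.1 the change was -0.66 and no longer called. Its direction was fixed, since it passed the filter through the control MO samples only. The other one, *wnt9a*, was at 1.62, 1.93 and 1.95 FPKM in *nlrc3* MO samples and 1.22, 1.33 and 1.40 FPKM in control MO samples. It alone among the tested members had all *nlrc3* MO samples above the control MO samples. Its log2 fold change was 0.45 (standard error 0.16, limma adjusted p = 0.0377), inside the fold limit and not called. The size depended on scaling, at 0.09 (limma adjusted p = 0.620) with equal totals and 0.65 (limma adjusted p = 0.00774) with median-of-ratios scaling, and the adjusted p reached 0.110 when 1 sample was left out. Within a sample, where scaling has no effect, *wnt9a* was 9.53, 10.2 and 5.91 times the level of *wnt16* in *nlrc3* MO samples, against 1.65, 1.49 and 1.15 times in control MO samples. The divisor *wnt16* was low and its direction was fixed by the filter, so the ratio adds no support for a change. This ratio and those given elsewhere were chosen after the values had been seen.

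The remaining tested ligands were low. The gene *wnt2bb*, which in zebrafish acts in liver specification, was at 0.58, 0.92 and 0.42 FPKM in *nlrc3* MO samples, against 1.78, 1.58 and 1.83 FPKM in control MO samples. In *wnt7aa* the values were 0.07, 0.19 and 0.35 FPKM in *nlrc3* MO samples, against 0.69, 0.79 and 0.68 FPKM in control MO samples. Both were lower without overlap, at log2 fold changes of -1.36 (limma adjusted p = 0.00324) and -1.54 (limma adjusted p = 0.0115), and both calls were lost with a pseudocount of 1. In all, 5 of 7 tested ligands were called lower, where 20.4% of all tested genes were. Of these, *wnt16* and *wnt7aa* passed the filter through the control MO samples only, so they could only come out lower.

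The other 19 ligand rows were too low to be tested. Both *wnt8a* rows and *wnt6b* were listed at 0 in every sample. Listed at 0 in all 3 *nlrc3* MO samples were *wnt10b*, at 0.87, 0.45 and 0.68 FPKM in control MO samples, and *wnt2ba*, at 0.06 to 0.11 FPKM in control MO samples, as well as *wnt1*, *wnt6a*, *wnt8b* and *wnt7ab*, each at 0 in at least 1 control MO sample too. A zero in FPKM can be a failed estimate, so no fold is given for these genes. The gene *wnt2* was at 0.46, 0.67 and 0.35 FPKM in *nlrc3* MO samples and 0, 0.38 and 0.12 FPKM in control MO samples, with a small overlap. The groups also overlapped in *wnt4a*, *wnt4b*, *wnt9b*, *wnt10a*, *wnt7ba*, *wnt7bb*, *wnt5a*, *wnt3* and *wnt3a*, all under 0.5 FPKM in every sample. Levels this low do not show whether these ligands differed.

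Frizzled receptors were the most abundant class, and *fzd7a* (ENSDARG00000060004) led it. It was at 21.97, 18.56 and 19.28 FPKM in *nlrc3* MO samples, against 101.65, 102.04 and 101.53 FPKM in control MO samples. The control MO values differed by less than 1 FPKM, and the log2 fold change was -2.35 (standard error 0.062, limma adjusted p = 7.24e-08), or 5.10-fold lower. By the percentage of all tested genes with a lower mean level, *fzd7a* stood at percentile 82.7 in *nlrc3* MO samples and 96.4 in control MO samples. Its paralog *fzd7b* was at 6.60, 6.75 and 6.93 FPKM in *nlrc3* MO samples, against 30.63, 29.57 and 29.39 FPKM in control MO samples, a log2 fold change of -2.13 (standard error 0.051, limma adjusted p = 4.33e-08). The ratio of *fzd7a* to *fzd7b* was 3.33, 2.75 and 2.78 in *nlrc3* MO samples and 3.32, 3.45 and 3.45 in control MO samples, with overlapping groups. Reads that such paralogs share cannot be told apart in FPKM, which holds for *fzd8a* and *fzd8b* as well.

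The largest fall among the receptors was in *fzd8a* (ENSDARG00000045444). Its level was 1.03, 0.92 and 0.99 FPKM in *nlrc3* MO samples, against 23.19, 24.75 and 23.84 FPKM in control MO samples. That is 22.3-fold lower on the log2(FPKM + 0.1) scale, a log2 fold change of -4.48 (standard error 0.085, limma adjusted p = 1.48e-08). It stood at percentile 19.7 of tested genes in *nlrc3* MO samples and 83.4 in control MO samples. The paralog *fzd8b* was at 0.46, 0.55 and 0.39 FPKM in *nlrc3* MO samples, against 2.68, 2.69 and 3.22 FPKM in control MO samples. It was lower too, by a log2 fold change of -2.39 (standard error 0.19, limma adjusted p = 2.35e-05). The groups did not overlap in the ratio of *fzd8a* to *fzd8b*, which was 2.24, 1.67 and 2.54 in *nlrc3* MO samples, against 8.65, 9.20 and 7.40 in control MO samples.

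In *fzd2*, second in level among the Frizzled genes, the fall was close to the fold limit. The gene was at 15.95, 17.68 and 16.18 FPKM in *nlrc3* MO samples, against 33.00, 34.33 and 35.80 FPKM in control MO samples. Every *nlrc3* MO sample was lower, at a log2 fold change of -1.05 (standard error 0.057, limma adjusted p = 2.85e-06), which became -0.83 and was no longer called with median-of-ratios scaling. The low receptors *fzd1* and *fzd3a* fell further. Levels of *fzd1* were 0.48, 0.76 and 0.54 FPKM in *nlrc3* MO samples, against 3.92, 3.80 and 3.76 FPKM in control MO samples, with a log2 fold change of -2.52 (limma adjusted p = 1.64e-05). Those of *fzd3a*, which guides growing axons, were 0.69, 0.57 and 0.67 FPKM in *nlrc3* MO samples, against 3.33, 3.58 and 3.53 FPKM in control MO samples, with a log2 fold change of -2.27 (limma adjusted p = 8.88e-06). Neither gene had overlapping groups.

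The other 4 tested receptors had an adjusted p under 0.05 but stayed within the fold limit and were not called. The gene *fzd9b*, which encodes the receptor of Wnt9a in zebrafish blood stem cell development, was at 5.61, 4.35 and 4.66 FPKM in *nlrc3* MO samples, against 6.53, 6.38 and 7.02 FPKM in control MO samples. Its log2 fold change was -0.45 (standard error 0.11, limma adjusted p = 0.00920), and -0.23 (limma adjusted p = 0.113) with median-of-ratios scaling. The planar cell polarity receptor gene *fzd6* was at 8.91, 7.20 and 8.39 FPKM in *nlrc3* MO samples, against 14.60, 14.52 and 13.96 FPKM in control MO samples, with a log2 fold change of -0.81 (limma adjusted p = 1.12e-04). In *fzd10* and *fzd5* the log2 fold changes were -0.47 (limma adjusted p = 0.0218) and -0.92 (limma adjusted p = 0.00708). With equal totals *fzd6* (-1.19) and *fzd5* (-1.31) were called lower, while *fzd9b* (-0.82) and *fzd10* (-0.85) were not. In total, 7 of 11 tested Frizzled genes were called lower, where 20.4% of all tested genes were. The *nlrc3* MO samples were below the control MO samples in all 11, against 46.1% of all tested genes. The remaining receptors *fzd3b* and *fzd9a* were at 0 to 0.98 FPKM with overlapping groups and were not tested.

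**Figure D2:**
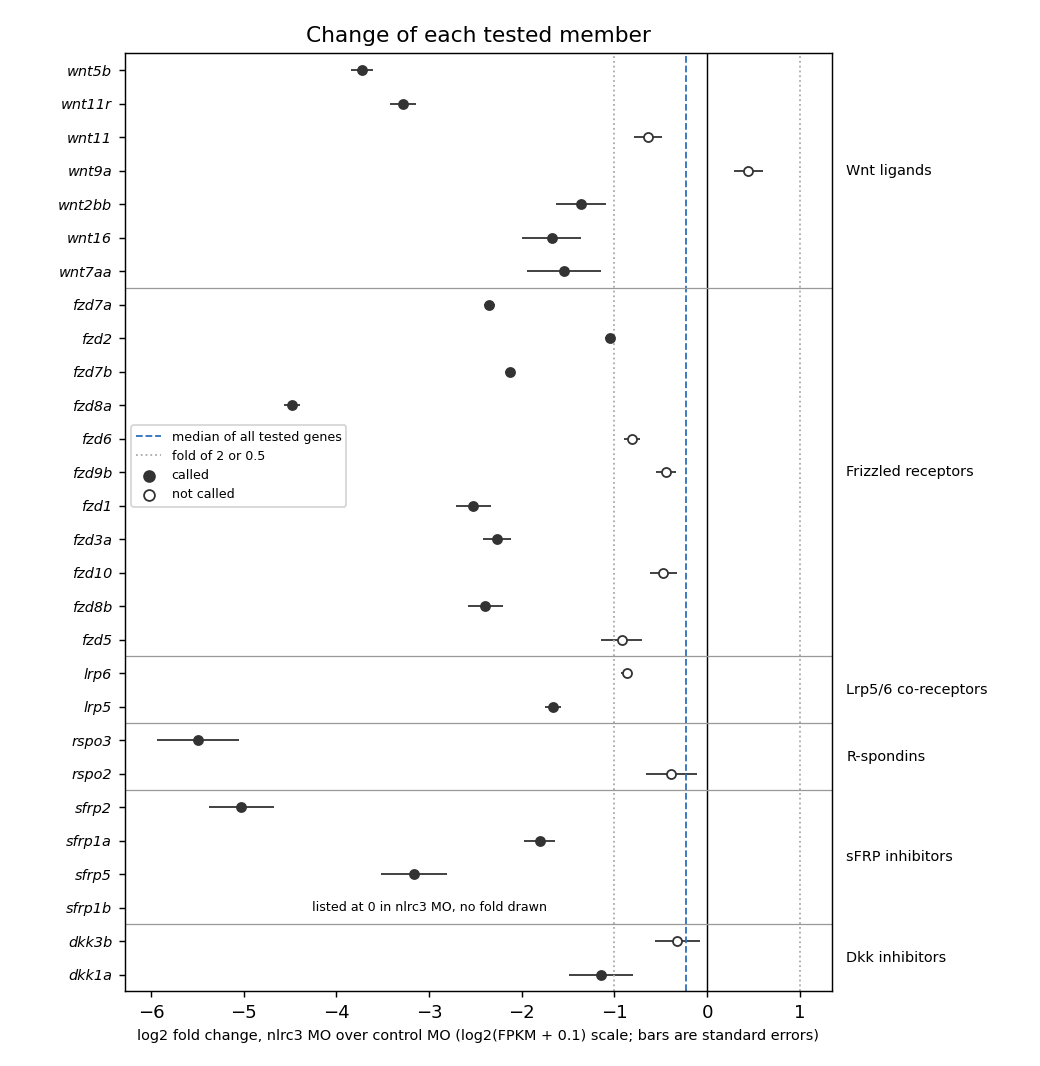
Log2 fold change of *nlrc3* MO over control MO with its standard error for 27 of the 28 tested members on the log2(FPKM + 0.1) scale, with filled points for called genes, dotted lines at the fold limits and a dashed line at -0.22, the median of all tested genes. The points run from -5.49 in *rspo3* to 0.45 in *wnt9a*, and *sfrp1b*, listed at 0 in all *nlrc3* MO samples, has no point.

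The co-receptor genes were both lower, *lrp5* by more than *lrp6*. For *lrp5* the levels were 2.98, 3.32 and 3.57 FPKM in *nlrc3* MO samples, against 10.37, 10.76 and 10.68 FPKM in control MO samples. It was called, with a log2 fold change of -1.66 (standard error 0.089, limma adjusted p = 2.69e-06). For *lrp6* they were 7.49, 7.25 and 7.09 FPKM in *nlrc3* MO samples, against 13.12, 13.17 and 13.72 FPKM in control MO samples. These groups were as well separated, but the log2 fold change of -0.87 (standard error 0.059, limma adjusted p = 1.05e-05) was within the fold limit, and it was called, at -1.24, only with equal totals among the scalings tried. The ratio of *lrp5* to *lrp6* was 0.398, 0.458 and 0.504 in *nlrc3* MO samples and 0.790, 0.817 and 0.778 in control MO samples, without overlap.

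Among the R-spondins, *rspo3* (ENSDARG00000070081) fell to 0.25 FPKM or less while *rspo2* did not pass the test. In mice *Rspo3* is needed for the vessels of the placenta and embryo. The zebrafish gene was at 0.25, 0.03 and 0 FPKM in *nlrc3* MO samples, against 6.93, 6.86 and 8.34 FPKM in control MO samples. Its log2 fold change was -5.49 (standard error 0.44, limma adjusted p = 2.62e-05), and -2.94 with a pseudocount of 1, also called. Since *rspo3* passed the filter through the control MO samples only, it could only come out lower. For *rspo2* the levels were 0.84, 0.65 and 1.0 FPKM in *nlrc3* MO samples and 0.85, 1.55 and 1.01 FPKM in control MO samples. These groups overlapped, with a log2 fold change of -0.39 (standard error 0.27, limma adjusted p = 0.250). Of the others, *rspo1* was listed at 0 in the *nlrc3* MO samples and at 0.04 to 0.05 FPKM in the control MO samples, and *rspo4* was listed at 0 throughout.

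All 4 tested sFRP genes were called lower, where 20.4% of all tested genes were. The most abundant, *sfrp2* (ENSDARG00000070050), was at 0.52, 0.51 and 1.52 FPKM in *nlrc3* MO samples, against 27.96, 26.94 and 27.67 FPKM in control MO samples. It had a log2 fold change of -5.02 (standard error 0.35, limma adjusted p = 1.19e-05), 32.5-fold lower, and it stood at percentile 17.2 of all tested genes in *nlrc3* MO samples and 85.4 in control MO samples. The gene *sfrp1a* was at 2.44, 2.09 and 3.16 FPKM in *nlrc3* MO samples, against 8.35, 8.56 and 10.54 FPKM in control MO samples. It fell least of the class, by a log2 fold change of -1.81 (standard error 0.17, limma adjusted p = 4.99e-05), and became the leading sFRP gene of the *nlrc3* MO samples. The gene *sfrp5* was at 0.21, 0.14 and 0.53 FPKM in *nlrc3* MO samples, against 3.05, 2.99 and 3.36 FPKM in control MO samples, with a log2 fold change of -3.16 (standard error 0.35, limma adjusted p = 1.52e-04). In *nlrc3* MO sample 3 each of these 3 genes was higher than in the other *nlrc3* MO samples, and still below every control MO sample, and all 3 kept their calls without it. The low *sfrp1b* was listed at 0 in all *nlrc3* MO samples, against 0.65, 0.77 and 0.65 FPKM in control MO samples. Having passed the filter through the control MO samples only, *sfrp1b* could only come out lower (limma adjusted p = 2.12e-04), and it lost its call with a pseudocount of 1. The fifth, *sfrp2l*, was at 0.01 to 0.14 FPKM, overlapped between groups and was not tested.

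Of the 2 tested Dkk genes 1, *dkk1a*, was called lower, where 20.4% of all tested genes were. Having passed the filter through the control MO samples only, *dkk1a* could only come out lower. The more abundant, *dkk3b*, belongs to a divergent branch of the family and was at 2.68, 2.31 and 1.58 FPKM in *nlrc3* MO samples and 3.53, 2.27 and 2.45 FPKM in control MO samples. These overlap, and the log2 fold change was -0.32 (standard error 0.24, limma adjusted p = 0.274). The Lrp antagonist *dkk1a* was at 0.33, 0.12 and 0.23 FPKM in *nlrc3* MO samples, against 0.55, 0.57 and 0.67 FPKM in control MO samples. It was called lower, with a log2 fold change of -1.14 (standard error 0.34, limma adjusted p = 0.0212), a call lost with median-of-ratios scaling, with a pseudocount of 1, without *nlrc3* MO sample 2 (-0.88, limma adjusted p = 0.0451) and without control MO sample 3 (-1.07, limma adjusted p = 0.0682). Its paralog *dkk1b* was not tested. It was at 1.79, 0.88 and 0.44 FPKM in *nlrc3* MO samples and 0.47, 0.33 and 0.25 FPKM in control MO samples, where *nlrc3* MO sample 1 stood apart and the groups overlapped. The also untested *dkk2* was at 0, 0 and 0.10 FPKM in *nlrc3* MO samples, against 1.26, 0.35 and 0.89 FPKM in control MO samples. These did not overlap. In *dkk3a*, at 0 to 0.23 FPKM in all 6 samples, they did.

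Summed over all members, tested or not, 5 of the 6 classes were lower in every *nlrc3* MO sample than in any control MO sample. The Frizzled genes summed to 62.2 ± 2.39 FPKM in *nlrc3* MO samples and 226 ± 1.95 FPKM in control MO samples (SD, n = 3 each), a ratio of 0.275. For the Wnt ligands the sums were 9.21 ± 1.02 FPKM in *nlrc3* MO samples and 45.6 ± 2.67 FPKM in control MO samples, a ratio of 0.202. The steepest differences were in the sFRPs, at 3.78 ± 1.32 FPKM in *nlrc3* MO samples and 40.6 ± 1.55 FPKM in control MO samples (ratio 0.0931), and the R-spondins, at 0.923 ± 0.215 FPKM in *nlrc3* MO samples and 8.56 ± 0.791 FPKM in control MO samples (ratio 0.108). The R-spondin difference rests on *rspo3*, which held 86.1% of the sum in control MO samples, while *rspo2* overlapped between the groups. The co-receptors summed to 10.6 ± 0.0950 FPKM in *nlrc3* MO samples and 23.9 ± 0.455 FPKM in control MO samples, a ratio of 0.441. Only the Dkk sums overlapped, at 5.03, 3.33 and 2.50 FPKM in *nlrc3* MO samples and 5.92, 3.56 and 4.26 FPKM in control MO samples.

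**Figure D3:**
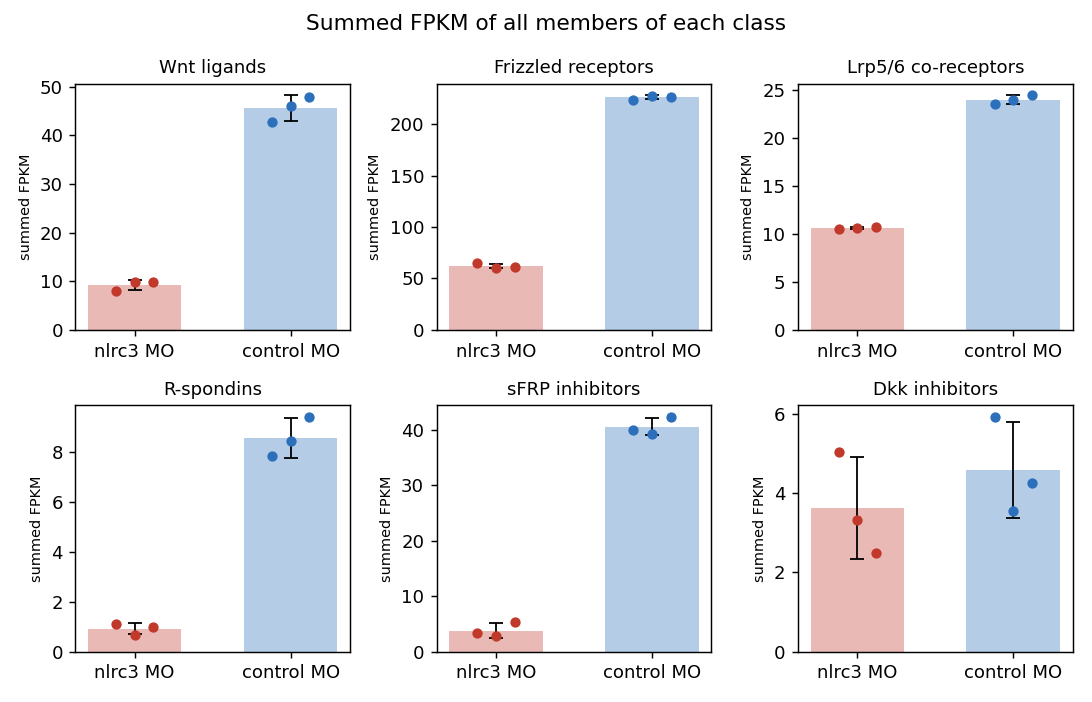
Summed FPKM of all members of each class in *nlrc3* MO (left, red) and control MO samples (right, blue), with bars at the mean, error bars of 1 SD and a point per sample (n = 3 each). Each panel has its own axis from 0, and the groups overlap in the Dkk panel only.

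Because members fell by different amounts, the make-up of each class differed too. The share of the summed ligand FPKM held by *wnt5b* was 14.0% ± 1.66 in *nlrc3* MO samples and 40.0% ± 0.799 in control MO samples (SD, n = 3 each), and that of *wnt11r* was 18.5% ± 1.5 in *nlrc3* MO samples and 37.9% ± 0.297 in control MO samples. The share of *wnt9a* was 19.9% ± 0.228 in *nlrc3* MO samples and 2.89% ± 0.0301 in control MO samples, and it was the ligand with the largest mean share in *nlrc3* MO samples. Among the receptors *fzd7a* led in both groups, with 32.0% ± 1.64 in *nlrc3* MO samples and 45.0% ± 0.346 in control MO samples. Next to it *fzd2* held 26.8% ± 2.44 in *nlrc3* MO samples and 15.2% ± 0.536 in control MO samples, while *fzd8a* held 1.58% ± 0.0395 in *nlrc3* MO samples and 10.6% ± 0.264 in control MO samples. The leading sFRP was *sfrp1a* in *nlrc3* MO samples (69.9% ± 8.68) and *sfrp2* in control MO samples (67.9% ± 2.25). The leading R-spondin was *rspo2* in *nlrc3* MO samples (90.9% ± 12.2) and *rspo3* in control MO samples (86.1% ± 4.29).

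**Figure D4:**
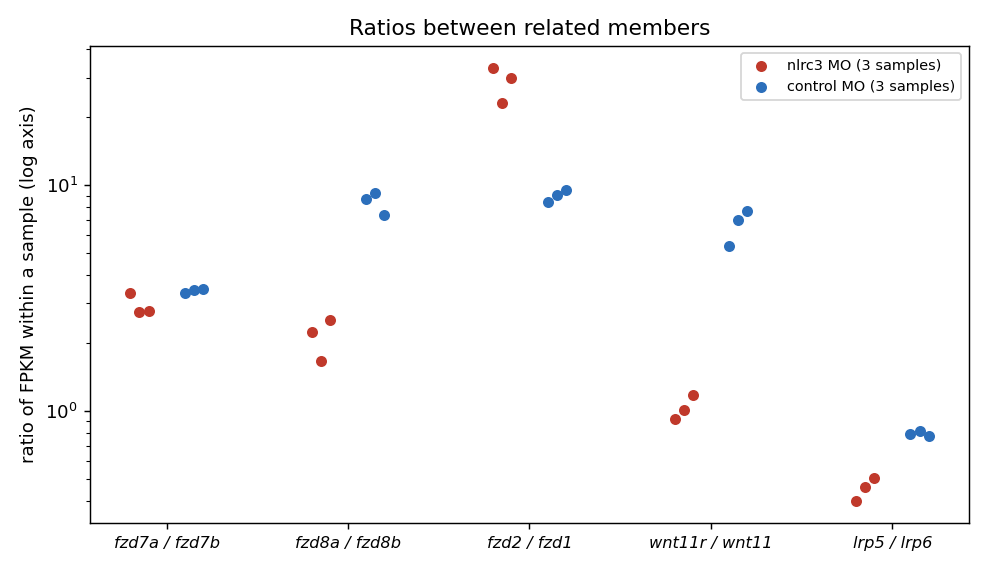
Ratio of FPKM between related members within each sample on a log axis, for 3 *nlrc3* MO (red) and 3 control MO samples (blue). The ratio of *fzd7a* to *fzd7b* overlaps between the groups, the *fzd2* to *fzd1* ratio is 23.3 to 33.2 in *nlrc3* MO samples and 8.42 to 9.52 in control MO samples, and the other 3 ratios are lower in *nlrc3* MO samples.

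The other genes of the Wnt pathway were taken from a list of 70 symbols, of which 61 were in the table and 51 were tested. In this list 31 were called lower and 0 higher, where 20.4% and 4.89% of all tested genes were, and the median log2 fold change was -1.32. Among those called, *notum1a* and *sp5a* passed the filter through the control MO samples only. The filter fixed their direction, so their calls are no support for it. The lower calls numbered 40 with equal totals, 29 with median-of-ratios scaling (*adgra2* and *pygo2* were lost) and 26 with a pseudocount of 1 (*kremen1*, *adgra2*, *tcf7*, *pygo2* and *prickle1a* were lost), alternatives chosen after seeing the data. The genes named from it were chosen after their values were seen. Of the secretion genes *wls*, the carrier of Wnt proteins, was at 9.99, 9.46 and 10.94 FPKM in *nlrc3* MO samples, against 48.41, 49.29 and 48.29 FPKM in control MO samples, a log2 fold change of -2.26 (limma adjusted p = 7.28e-08). It and *porcnl*, which encodes a Porcupine-like acyltransferase, were the 2 tested genes of their step and both were lower. All 5 tested extracellular inhibitors were lower (*wif1*, *notum1a*, *notum1b*, *sost* and *kremen1*), and so were all 5 tested alternative receptors and co-receptors. Among these, the Wnt5 receptor gene *ror2* was at 1.1, 1.33 and 1.5 FPKM in *nlrc3* MO samples, against 17.20, 16.16 and 16.00 FPKM in control MO samples (log2 fold change -3.56, limma adjusted p = 2.53e-07). The R-spondin receptor gene *lgr4* and the ligase gene *znrf3*, at log2 fold changes of -0.94 and -0.39, were not called.

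Among the genes that act inside the cell, 3 of 11 tested ones of the cytoplasmic core were lower, a share near the 20.4% of all tested genes: *dvl2*, which relays the Frizzled signal, and both beta-catenin genes. The more abundant of these, *ctnnb1*, was at 97.84, 101.98 and 103.63 FPKM in *nlrc3* MO samples, against 275.95, 275.92 and 269.64 FPKM in control MO samples, a log2 fold change of -1.44 (limma adjusted p = 1.97e-08). The other 8, with *apc*, *axin1* and *gsk3ab* of the destruction complex among them, were within the fold limit, and *dvl1a*, *dvl3b*, *gsk3aa* and *csnk1a1* had log2 fold changes of 0.13 to 0.44. With equal totals *dvl1a*, *dvl3b* and *gsk3aa* were at -0.23, -0.09 and -0.18, and *csnk1a1* at 0.06. There 6 of the 11 core genes were called lower, against 30.5% of all tested genes. Of 9 tested nuclear genes 7 were lower, including *lef1* and *tcf7*. Of 10 tested feedback targets, which beta-catenin signaling is known to raise, 8 were lower. The feedback targets share *lef1* and *tcf7* with the nuclear genes and *notum1a* with the extracellular inhibitors, so these calls count in both. In this group *axin2* was at 1.36, 1.47 and 1.34 FPKM in *nlrc3* MO samples, against 18.15, 18.16 and 19.75 FPKM in control MO samples, a log2 fold change of -3.66 (limma adjusted p = 3.90e-08). The transcription factor gene *sp5a* was at 0.08, 0.14 and 0.19 FPKM in *nlrc3* MO samples, against 7.80, 7.58 and 8.15 FPKM in control MO samples, with a log2 fold change of -5.10 (limma adjusted p = 7.27e-07). The groups did not overlap in either gene, which for *sp5a* was fixed by the filter. Not called were *ccnd1* and *znrf3*. Of 11 tested genes of planar cell polarity 4 were lower (*prickle1a*, *prickle1b*, *prickle2b* and *celsr2*), where 20.4% of all tested genes were. The call on *prickle1a* was lost with a pseudocount of 1.

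**Figure D5:**
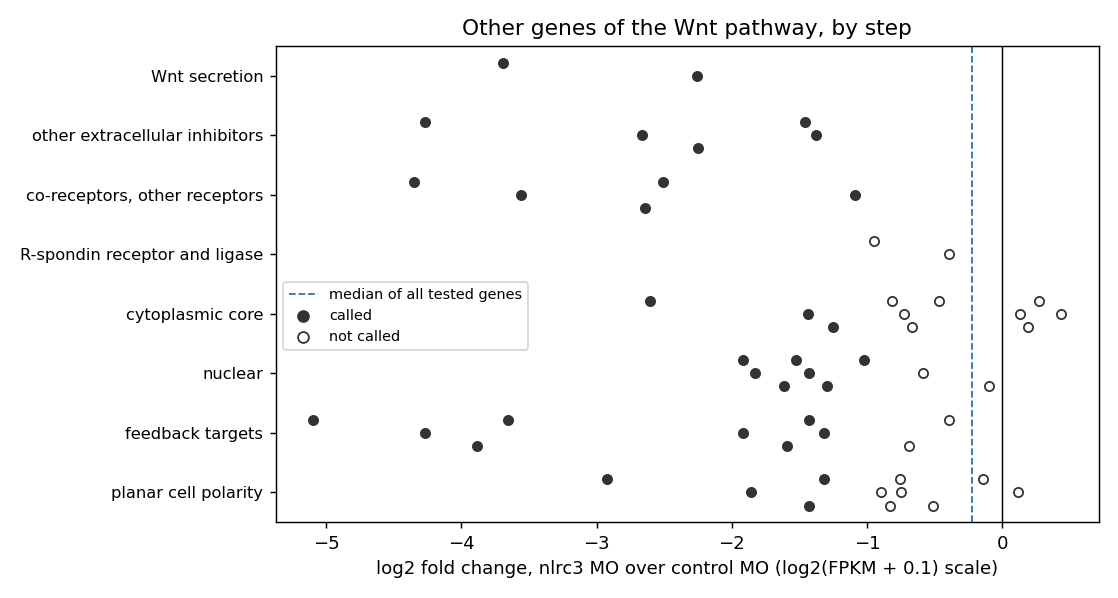
Log2 fold change of *nlrc3* MO over control MO on the log2(FPKM + 0.1) scale for the tested genes of the pathway list, by step, with filled points for called genes and a dashed line at -0.22, the median of all tested genes (genes in 2 steps are drawn in both, and vertical offsets only keep points apart). All called genes lie left of 0, and the points right of 0 belong to the cytoplasmic core and to planar cell polarity.

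Because the libraries differ in their summed FPKM, changes were also read against the median of all genes. That median was -0.22 with FPKM as deposited, -0.60 with equal totals and -0.01 with median-of-ratios scaling, and the tested members lay at -1.67, -2.09 and -1.47 with the same scalings, that is 1.45, 1.49 and 1.46 log2 units below it. No tested member changed sign between the scalings. Of the 19 lower calls all 19 were kept with equal totals, where 23 members were called lower and 0 higher, against 30.5% and 1.95% of all tested genes. With median-of-ratios scaling 17 were kept, and 17 members were called lower and 0 higher, against 16.6% and 7.68% of all tested genes. With a pseudocount of 1 in place of 0.1, 14 members were called lower, against 12.8% of all tested genes. Over all genes the calls split into 3091 lower and 741 higher as deposited, 4620 lower and 295 higher with equal totals, and 2510 lower and 1164 higher with median-of-ratios scaling.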

How the data were processed

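According to the methods, the authors cleaned single-end reads (Cutadapt), mapped them to Ensembl's zebrafish genome (HISAT2), assembled transcripts (StringTie) and from these derived FPKM (StringTie, ballgown). The submitters' processing notes name Bowtie 0.12.2, CASAVA 1.8 and the build mm8 instead, and this conflict was not resolved. The authors deposited 1 table of FPKM, rounded to 2 decimals, with a column for each of the 6 samples. Column names carry short codes, which were matched to the groups through the headings that the study's source data give to the same columns. Its further columns, the authors' fold change, log2 fold change, p-value and q-value, were not used. Depth is unknown: steps worth 1 read were not found among low values (the commonest ratio covered 2.78% of 4539 low genes of a pair of samples).

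Members were found by symbol. Members, classes and lists were chosen with earlier results of these data known. All 55 identifiers matched the separate list of zebrafish names, which gave the same symbol for 11 of them. The table gives no positions and its build was not matched to a reference, so no coordinates or sequences are given.

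The 15155 genes that reached 0.5 FPKM in 3 or more samples were fitted with limma 3.58.1 in R 4.3.3 (lmFit, and eBayes with a trend and 3.36 prior degrees of freedom) on log2(FPKM + 0.1), *nlrc3* MO against control MO without covariates, with Benjamini-Hochberg adjustment. Calls needed an adjusted p under 0.05 and, as in the study, a fold above 2 or under 0.5. The fit was tested on simulated data. Equal totals means TPM. Members given with values by rule were called members with a mean of at least 2 FPKM in either group, the 3 most abundant tested ones of each class, *wnt16* and *wnt9a*; the other members shown were added after their values were seen. No pair of libraries shared more than 1.63% of identical values. Figures were drawn with Python 3.11.15 and matplotlib 3.10.9.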

Additional observations from a re-analysis of the deposited data

How the results depend on the processing

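The count of 19 members called lower was 14 to 25 under the alternatives planned, with 19 for the block on the replicate number, a pseudocount of 0.01 and eBayes without the trend, and 18 to 20 with 1 sample left out. All 19 calls were kept under the block, which changed no member's call, and 18 were kept in all 6 leave-one-out fits (*dkk1a* was lost). Deviations of same-numbered samples had correlations of 0.00409, 0.0400 and -0.00336, and those of differently numbered samples -0.0352 to 0.0354. No pairing by replicate number was seen, but with 3 samples per group these values cannot exclude one. A mean of at least 2 FPKM, an alternative chosen after seeing the data, left 12 members called lower, 2 of them Wnt ligands, 2 sFRPs and 0 Dkk genes. With that filter 16.8% of all 11027 genes were called lower. Without the fold limit 1 member, *wnt9a*, was called higher, and all 11 tested Frizzled genes lower. Of all tested genes 20.2% were higher and 42.9% lower without that limit.

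The median log2 fold change of the members, -1.67, was -0.90 with a pseudocount of 1, -1.93 with 0.01, -0.89 without the filter, -2.09 with TPM, -1.47 with median-of-ratios scaling, -2.13 at a mean of at least 2 FPKM, and -1.88 to -1.57 with a sample left out. The 5 Wnt ligands called lower became 2 with a pseudocount of 1 and 3 with a filter at 1 FPKM. The single Dkk call became 0 with a pseudocount of 1, a filter at 1 FPKM or median-of-ratios scaling, 2 without the filter, and 0 to 1 with a sample left out. Over all genes 3832 calls became 2298 with a pseudocount of 1, 9558 without the fold limit and 2336 at a mean of at least 2 FPKM. The cause of these moves was not tested.

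No member named by rule reversed. Among these 21 members, 299 values under the alternatives kept their side of the threshold, 6 lost it and 2 gained it. Some genes outside the members did change sign with equal totals, *tek*, *etv2* and *krt4* among them. With depth unknown, the precision of low members cannot be given beyond the spread between samples. The largest move with a pseudocount of 1 was in *rspo3*, at -2.94 in place of -5.49.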

Other observations

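Over all tested genes 20.4% were called lower and 4.89% higher, and the lower counts of muscle and epidermis markers given here were near or under that share. Of 10 muscle and somite markers 3 were called lower (*pax3a*, *pax7a* and *ripply1*) and 1 higher (*myog*), with sums of 103 to 106 FPKM in *nlrc3* MO samples and 109 FPKM in control MO samples. The filter fixed the direction of *pax7a*, which passed through the control MO samples only, and of *myog*, which passed through the *nlrc3* MO samples only. Of 9 tested epidermis and fin fold markers 1 was lower (*dlx5a*) and 1 higher (*and1*), with sums of 109 to 112 FPKM in *nlrc3* MO samples and 156 to 172 FPKM in control MO samples. Without *dlx5a* the sums were 108 to 110 FPKM in *nlrc3* MO samples and 89.4 to 96.2 FPKM in control MO samples, in the opposite direction with FPKM as deposited. The most abundant of the rest, *krt4* and *cyt1*, had log2 fold changes of 0.12 and 0.19, but -0.26 and -0.19 with equal totals. With equal totals *epcam*, *tp63*, *cldni* and *and1* stayed above 0. Of 6 tested tailbud markers 2 were lower (*sall4* and *msgn1*) and 3 higher (*tbxta*, *cdx4* and *her1*), with sums of 13.3 to 14.0 FPKM in *nlrc3* MO samples and 76.6 to 77.5 FPKM in control MO samples. Without *sall4* they were 8.65 to 8.90 FPKM in *nlrc3* MO samples and 4.30 to 4.69 FPKM in control MO samples, again in the opposite direction. Both *dlx5a* and *sall4* were chosen for this after the values had been seen. With equal totals the higher calls on *tbxta* and *cdx4* were lost, with median-of-ratios scaling the lower call on *msgn1*, and with a pseudocount of 1 all tailbud calls but that on *sall4*. The call on *myog* was lost with a pseudocount of 1. Their part in the results on Wnt genes was not tested.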
